A study of Mus musculus with 6 samples.

Results

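The 10 genes described here encode the core of the Notch pathway in mouse retina: the receptors Notch1, Notch2 and Notch3, the Delta-like ligands Dll1, Dll3 and Dll4, the Jagged ligands Jag1 and Jag2, and the nuclear partners Rbpj and Maml1. They were taken by gene symbol from a table of 20175 genes, and all 10 were found once each and passed the filter on low values, which left 16064 genes tested. The table comes from poly-A RNA sequencing of retina on postnatal day 2 (P2), with 3 control libraries and 3 libraries from mice whose Zeb2 alleles both carry loxP sites and which also carry αCre (Zeb2 loxP/loxP αCre), called Zeb2 mutant here. αCre is known to be active in progenitors of the peripheral retina, so a mutant retina also holds cells with intact Zeb2. Beyond the word control, the sources used here do not give the genotype of the first group, the strain of either group, or whether controls carry αCre. The series text counts 3 mice of each kind, which can be read as 1 mouse per library, but no label ties a library to an animal.

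Notch is a receptor that is cut after it binds a ligand on a neighbouring cell. The freed intracellular domain enters the nucleus, where it binds the DNA-binding protein RBPJ and the coactivator MAML1 and switches on genes such as Hes1 and Hes5. In the developing retina, Notch signalling is known to keep progenitors dividing and to favour Müller glia, while cells that leave the cycle as neurons raise their ligands. Zeb2 encodes a zinc-finger transcription factor, and the question behind the series is how it bears on whether late retinal cells become interneurons or Müller glia.

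The libraries held 26041200 to 32614805 reads on genes. Zeb2 itself stood at 5916.7 to 6448.7 normalised counts in controls and 4273.6 to 5581.4 in mutants, a log2 fold change of -0.31 ± 0.090 (SE) that did not pass the test (limma adjusted p = 0.129). It passed with DESeq2 (adjusted p = 0.0155) and without mutant library 1 (limma adjusted p = 0.0375). All 15 markers of neural retina on a fixed list were found, none of them at 0 in any library, and their summed normalised counts were 158751.6 to 165193.9 in controls and 155599.1 to 170320.8 in mutants. Rbp3, a photoreceptor matrix gene and the most abundant of them, had a log2 fold change of 0.047. Mutant libraries 1 and 2 carried the most mesenchyme and astrocyte transcripts, and control library 2 the most lens transcripts. Those values are given beside the genes they move with. In bulk tissue, fewer cells of a type and less RNA per cell cannot be told apart.

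None of the 10 genes passed the test across all genes in either direction (limma adjusted p under 0.05), against 1.15% of all genes tested (0.928% higher and 0.218% lower in mutants). At an unadjusted p under 0.05 there were 2 of 10, Dll3 and Notch3, against 17.3% of all genes. The same pair had groups that did not overlap, against 23.2% of all genes. edgeR on the recovered reads called 0 of the 10, where it called 1.12% of all genes (0.915% higher and 0.205% lower). DESeq2 called Dll3 lower and Notch3 higher, where it called 5.66% of the 15429 genes to which it gave an adjusted p (3.48% higher and 2.18% lower). Log2 fold changes were negative for 7 of the 10 and positive for 3, with a median of -0.089, and 52.0% of all genes tested were negative, with a median of -0.0067.

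**Figure D1:**
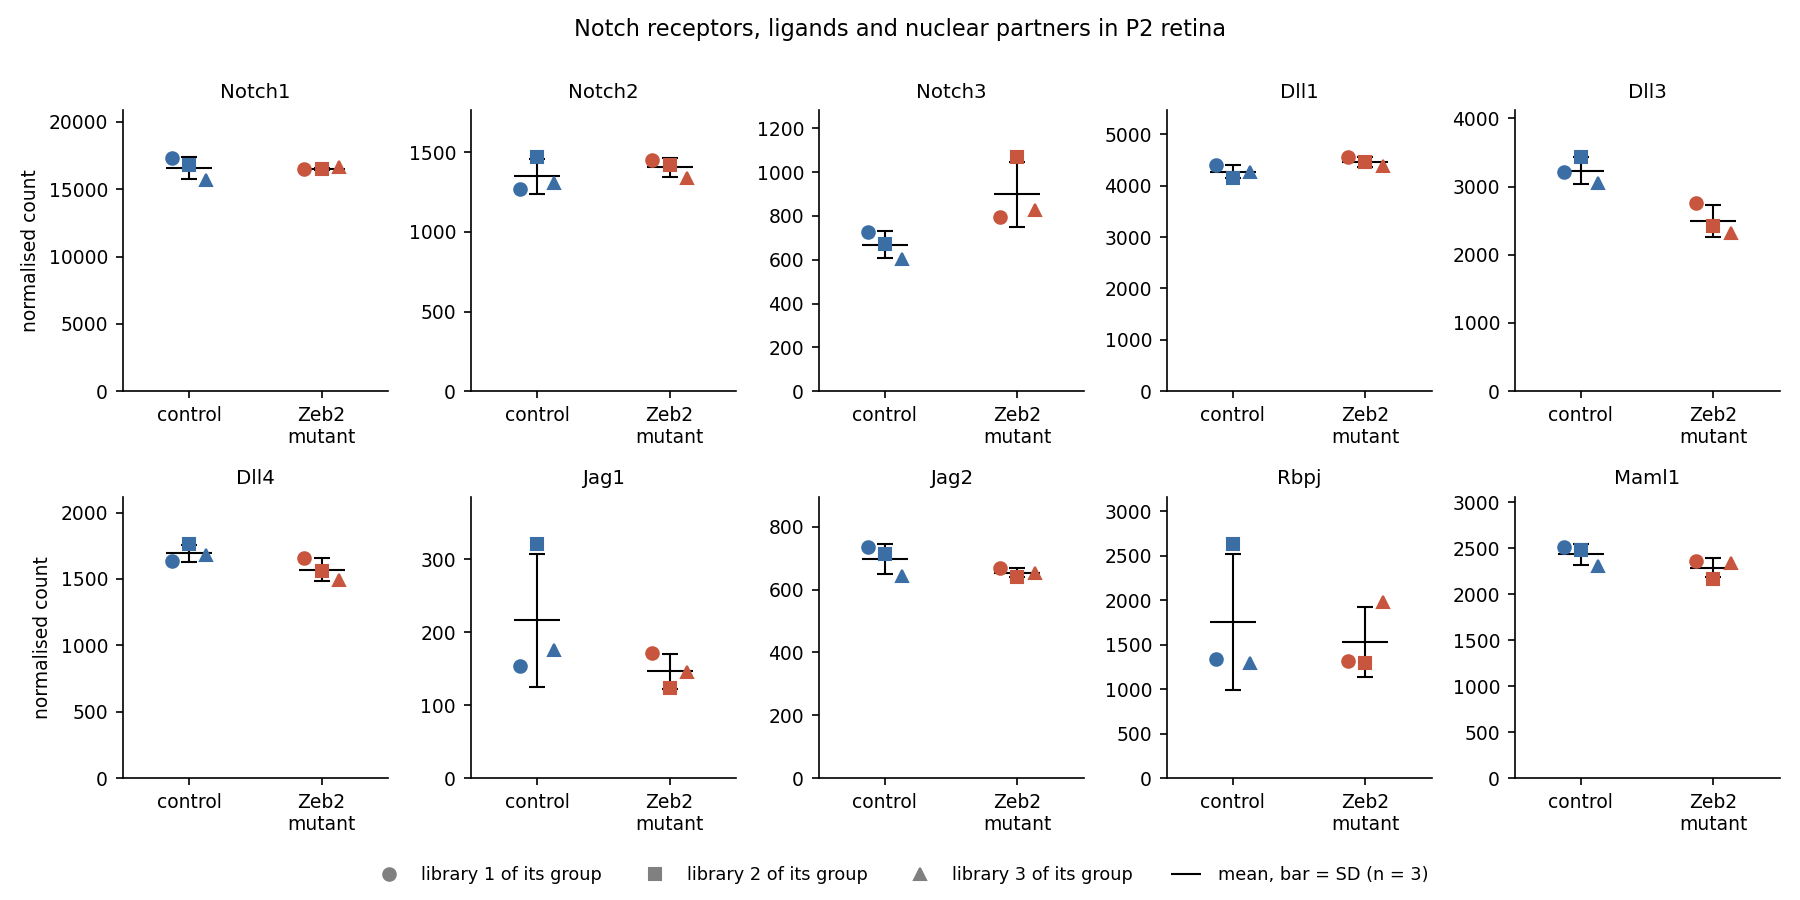
Normalised counts (vertical axis, from 0) of the 10 genes in each of 3 control and 3 Zeb2 mutant libraries, with the mean and SD. For Dll3 all mutant points lie below all control points, for Notch3 all lie above, and in the other 8 panels the groups overlap.

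Notch1, the main receptor of retinal progenitors, stood at closely similar levels in both groups. The gene (ENSMUSG00000026923; GRCm38 chromosome 2, 26457903 to 26516663, minus strand) had normalised counts of 17294.1, 16773.7 and 15697.2 across controls, against 16464.1, 16498.3 and 16622.8 across mutants. The 3 mutant values lay inside the control range. The means were 16588.3 ± 814 and 16528.4 ± 83.5 (SD, n = 3 each), a log2 fold change of -0.0041 ± 0.051 (SE; limma adjusted p = 0.978). The 95% interval of the difference ran from -8.0% to 8.1%. The sign of so small a value turned with the scaling, to 0.011 on library totals and 0.029 after quantile normalisation.

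Notch2, a second receptor of the same family (ENSMUSG00000027878; chromosome 3, 98013527 to 98150361, plus strand), had 1268.2, 1471.9 and 1306.5 across controls, against 1454.0, 1421.3 and 1340.6 across mutants. The highest and the lowest of the 6 values were both controls. This gave a log2 fold change of 0.061 ± 0.068 (limma adjusted p = 0.696), with a 95% interval of the difference from -6.3% to 16.1%.

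Notch3, a receptor best known from the mural cells of blood vessels and also found in neural progenitors, had its 3 mutant values above its 3 control values. The gene (ENSMUSG00000038146; chromosome 17, 32120820 to 32166852, minus strand) had 726.2, 671.4 and 603.3 across controls, against 796.7, 1069.1 and 827.7 across mutants. Mutant library 2 was the highest by far, and the other mutant libraries stood close to control library 1. The means were 667 ± 61.6 and 897.8 ± 149 (SD, n = 3 each), a 1.34-fold difference with a 95% interval from 1.11 to 1.61. The log2 fold change of 0.42 ± 0.12 (SE) did not pass (limma adjusted p = 0.119; 0.00663 unadjusted). An exact permutation test (2-sided) gave p = 0.1, which is as low as a design of 3 against 3 can reach. DESeq2 called it (adjusted p = 0.0164). Without mutant library 2 the log2 fold change was 0.29 (limma adjusted p = 0.257), and without mutant libraries 1 and 2 it was 0.32 (limma adjusted p = 0.254).

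Markers of mural cells were mixed. All 11 were found, none at 0 in any library, and their summed normalised counts were 658 to 1249.4 in controls and 847.4 to 1032.4 in mutants, which overlap. Of 10 tested, 4 had positive and 6 negative log2 fold changes, with a median of -0.056. Of the 10, 1 was called higher, against 0.928% of all genes tested. This gene, Vtn, which encodes the matrix protein vitronectin and is not restricted to mural cells, rose 2.48-fold (limma adjusted p = 0.0374). The other 9 ran from -1.02 (Acta2, a smooth muscle actin gene) to 0.34 (Cspg4, the NG2 gene), and none of them was called. Vtn and Cspg4 were highest in mutant library 2, as Notch3 was, while Rgs5 and Pdgfrb, with -0.49 and -0.31, had their lowest values there. These genes were picked after their values were seen.

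Astrocyte and mesenchyme lists did move the way Notch3 did. The 8 astrocyte genes, none of them at 0 in any library, summed to 12445.9 to 13013.9 in controls and 16975.2 to 22279 in mutants, with a median log2 fold change of 0.90. Of the 8, 1 was called, Igfbp2, which rose (1.97-fold, limma adjusted p = 0.0169), against 0.928% of all genes called higher. The 12 mesenchyme genes, among which Lum was at 0 in at least 1 library, summed to 4689.7 to 5165.7 and 6399.4 to 12299.6, with a median of 2.06 over the 11 tested. Of those 11, 1 was called, Col6a1, a collagen VI chain gene, which rose (1.90-fold, limma adjusted p = 0.0240), against the same 0.928%. Both sums were highest in mutant library 1, where Notch3 was the lowest of the 3 mutant values. Igfbp2, the called astrocyte gene, was highest in mutant library 2, with 5926.9, 7667.7 and 5142.1 across mutants. The part of mural cells, astrocytes and mesenchyme in the Notch3 difference was not tested.

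**Figure D2:**
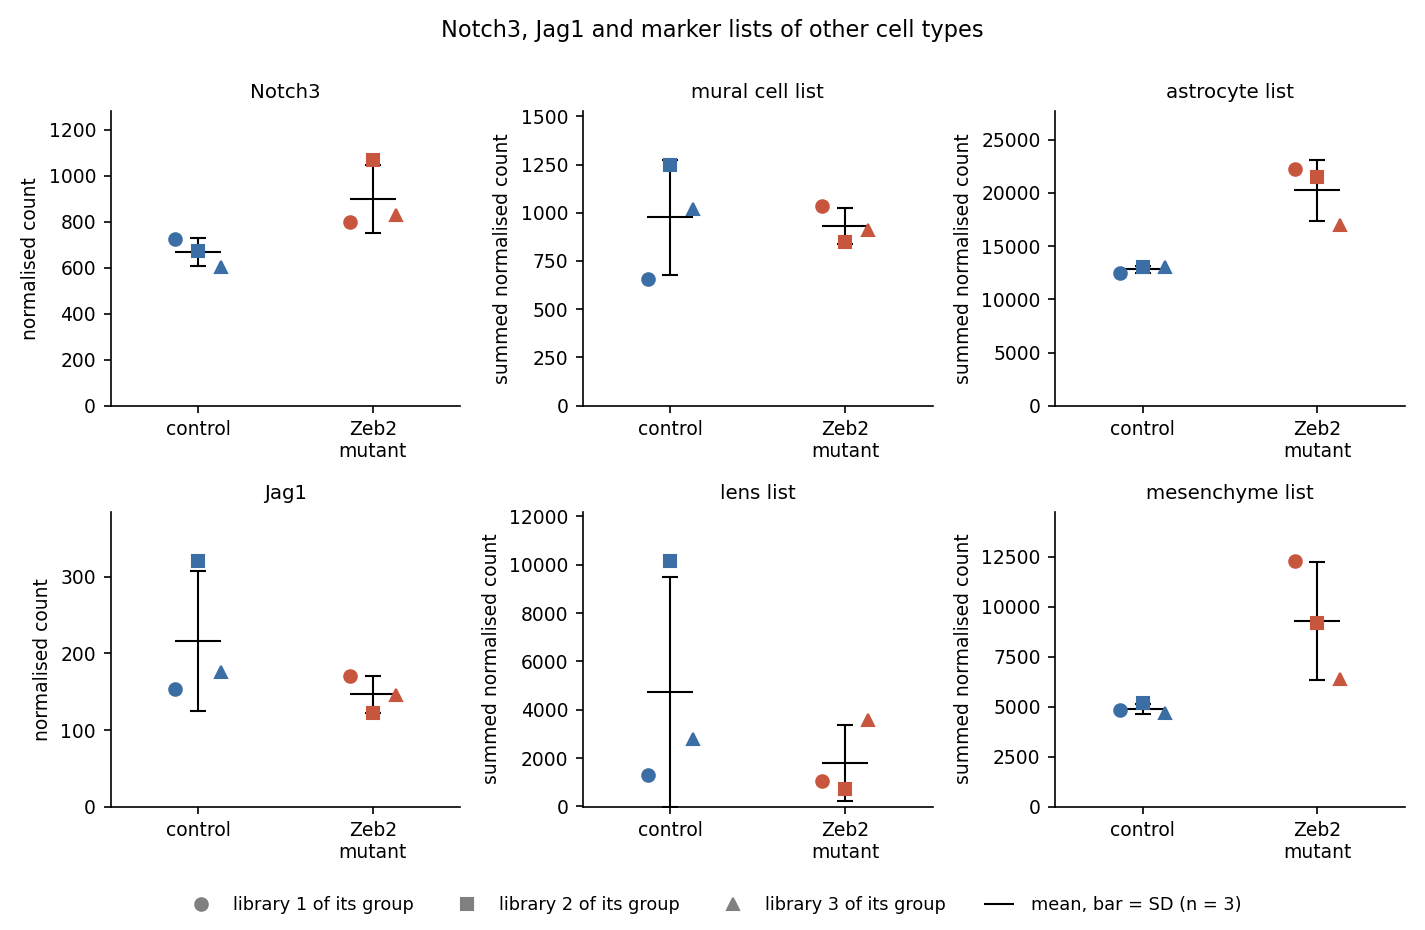
Normalised counts of Notch3 and Jag1, and summed normalised counts of marker lists of other cell types, in each library, with the mean and SD of each group. Notch3 is highest in mutant library 2, the mural sums overlap between groups, the astrocyte and mesenchyme sums do not, and Jag1 and the lens sum share their highest library, control library 2.

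Among the ligands, Dll3 was the one whose groups did not overlap. Dll3 encodes a divergent Delta-like protein that does not activate Notch on neighbouring cells and is known as a marker of newly forming neurons. The gene (ENSMUSG00000003436; chromosome 7, 28293553 to 28302238, minus strand) had 3218, 3435.7 and 3046.4 across controls, against 2757.9, 2416.9 and 2315.6 across mutants. The 3 mutant values all lay below the lowest control. The means were 3233.4 ± 195 and 2496.8 ± 232 (SD, n = 3 each), which puts mutants at 77.2% of controls, with a 95% interval of the change from -31.3% to -13.4%. The log2 fold change was -0.38 ± 0.073 (SE), just short of the threshold (limma adjusted p = 0.0554; 0.000734 unadjusted). An exact permutation test (2-sided) again gave its lowest possible p = 0.1.

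The Dll3 call changed with the setting. It passed with DESeq2 (adjusted p = 0.000277), with the replicate number as a block (limma adjusted p = 0.0476, where 1.54% of all genes were called, 1.18% higher and 0.361% lower) and without mutant library 1 (limma adjusted p = 0.0128, log2 fold change -0.45, where 3.74% of all genes were called, 2.23% higher and 1.51% lower). It did not pass in the other 17 of 20 alternatives, and the log2 fold change ran from -0.48 to -0.28 over all of them.

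Dll1, the ligand known for activating Notch between neighbouring progenitors (ENSMUSG00000014773; chromosome 17, 15367354 to 15376872, minus strand), had 4394.6, 4152.2 and 4271.7 across controls, against 4561.7, 4452.6 and 4375.3 across mutants. The groups overlapped, since the lowest mutant stood below the highest control. The log2 fold change was 0.063 ± 0.043 (limma adjusted p = 0.504), with a 95% interval of the difference from -2.4% to 11.9%. Reads of the lincRNA A930024N18Rik, which overlaps Dll1 on the other strand, cannot be told apart from Dll1 reads where the counting did not use strand, and it stood at 161.7 and 181.8 on average.

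Set against Dll1 in the same library, Dll3 was lower in all 3 mutants. There were 73.2, 82.7 and 71.3 normalised counts of Dll3 per 100 of Dll1 across controls, against 60.5, 54.3 and 52.9 across mutants. This ratio does not depend on how libraries are scaled to each other. Dll4 per 100 of Dll1 was 37.2, 42.5 and 39.3 across controls, against 36.4, 35.0 and 34.1 across mutants, so these groups did not overlap either, by a narrower gap.

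Dll4, the ligand of retinal progenitors that are about to become neurons and of sprouting blood vessels (ENSMUSG00000027314; chromosome 2, 119325784 to 119335962, plus strand), had 1634.5, 1764.5 and 1680.6 across controls, against 1660, 1559.7 and 1490.9 across mutants. Mutant library 1 lay inside the control range and the other mutant libraries below it. This is a log2 fold change of -0.11 ± 0.057 (limma adjusted p = 0.371). Of 16 endothelial genes, all found and none at 0 in any library, 0 were called by limma, against 1.15% of all genes tested. There were 2 positive and 14 negative log2 fold changes, where 52.0% of all genes tested were negative, and the median was -0.17. Their sum, mostly Kdr (log2 fold change -0.067), was 19173.6 to 21879.5 in controls and 18445.9 to 20665 in mutants. Without Kdr, a split chosen after seeing the data, it was 1335.3 to 2152.7 and 1107.8 to 1949.6. The part of vessel cells in the Dll4 values was not tested.

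The summed level of neurogenic progenitor genes did not overlap between the groups and was lower in mutants. The 12 genes, none at 0 in any library, summed to 140912.6 to 144032.9 in controls and 132363.5 to 137015.2 in mutants. None was called by limma, against 1.15% of all genes tested. Of the 12, 7 had negative log2 fold changes, with a median of -0.056, and Neurod1, the most abundant, had 0.043. The 5 positive values included Gadd45a, a growth arrest gene picked after its values were seen and the furthest from 0 on the list, at 0.34 (limma adjusted p = 0.132). The negative ones included Sox11, Sox4 and Neurog2, also picked after their values were seen, at -0.28, -0.25 and -0.21 (limma adjusted p = 0.0682, 0.129 and 0.1735). In these 3 all mutants lay below all controls, while in Gadd45a and Btg2 (0.079) all lay above. Cycling progenitor genes had negative log2 fold changes for 9 of 12, where 52.0% of all genes tested were negative. Their median was -0.20, and 0 were called by limma, against the same 1.15%. Groups did not overlap for 8 of the 12 cycling genes and, in both directions, for 5 of the 12 neurogenic genes, against 23.2% of all genes. Those 8 cycling genes were all lower in mutants except Fgf15, a growth factor gene, which had 0.92 (limma adjusted p = 0.0890). The 12 cycling genes summed to 169885.1 to 187473.1 in controls and 140512.4 to 169913.3 in mutants, lowest in mutant library 3, where Dll3 was also lowest. Ccnd1, a D-type cyclin gene and the most abundant, had -0.34 (limma adjusted p = 0.212). The part of neurogenic and cycling cells in the Dll3 difference was not tested.

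Promoter windows from RefSeq (GRCm38.p6), the 250 bases before an annotated start, were found for all 10 genes, 12 windows in all. They were searched for CACCTG on both strands, the E-box that ZEB proteins are known to bind. It was present in 3 of the 12 windows, 1 each of Dll1, Dll3 and Rbpj, and in 17.2% of 32851 windows of all genes. The RBPJ core TGGGAA was present in both windows of Rbpj, which overlap and share a match, and in 21.6% of all windows. The Dll3 and Dll1 windows are shown because both ligands carry the E-box while their values differ, with the match in capitals on the strand of the gene. The Dll3 window is chr7:28301786-28302035 and the Dll1 window chr17:15376933-15377182, both on the minus strand, and the match begins at position -228 and -155 from the start. A match describes these letters and not a bound site.
Dll3: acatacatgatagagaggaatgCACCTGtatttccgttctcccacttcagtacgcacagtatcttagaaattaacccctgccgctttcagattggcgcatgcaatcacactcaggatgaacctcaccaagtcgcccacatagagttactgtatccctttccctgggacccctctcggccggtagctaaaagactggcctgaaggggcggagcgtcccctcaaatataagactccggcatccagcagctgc
Dll1: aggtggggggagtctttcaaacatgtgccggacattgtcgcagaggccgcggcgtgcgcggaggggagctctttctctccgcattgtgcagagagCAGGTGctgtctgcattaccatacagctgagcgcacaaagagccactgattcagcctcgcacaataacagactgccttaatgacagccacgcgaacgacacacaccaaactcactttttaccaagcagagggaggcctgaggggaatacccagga

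Jag1 had 1 control value far above its other 5. The gene encodes a ligand known from the ciliary margin, lens and vessels (ENSMUSG00000027276; chromosome 2, 137081456 to 137116644, minus strand). It had 153.3, 321 and 175.2 across controls, against 171.2, 122.9 and 145.2 across mutants. Control library 2 alone stood apart, and the other 5 values lay between 122.9 and 175.2. The log2 fold change was -0.50 ± 0.26 (limma adjusted p = 0.373) and -0.17 without control library 2 (limma adjusted p = 0.716). That library had the highest sums of lens, mural and, without Kdr, endothelial genes. It also had the highest sum of blood and microglia genes, 1655.5 against 713.4 to 1400.1 in the other libraries. The 10 lens genes summed to 10168.7 there, to 1282.1 and 2782.3 in the other controls, and to 734.4 to 3582.2 in the mutants. All 9 lens genes tested had negative log2 fold changes (median -0.92), where 52.0% of all genes tested were negative. None was called by limma, against 1.15% of all genes tested. Cryaa, the αA-crystallin gene, had -1.39, and Lim2 was at 0 in every library. Ciliary margin genes did not set that library apart, with a sum of 11966.8 against 10432.2 to 12559.6 over all 6. Vessel markers did so in part. The mural list had 1249.4 there against 658 to 1032.4 in the other libraries. The endothelial list without Kdr, the split chosen after seeing the data, had 2152.7 against 1107.8 to 1949.6. With Kdr, the endothelial sum was 21710.6 there, below the 21879.5 of control library 3. The part of lens, vessel, blood and microglial cells in the Jag1 values was not tested.

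Jag2, the other Jagged ligand (ENSMUSG00000002799; chromosome 12, 112907819 to 112929776, minus strand), had 736.9, 712.3 and 644.8 across controls, against 669.9, 641.5 and 652 across mutants. Of the mutant values 1 lay just below the lowest control and the others inside the control range. Their log2 fold change was -0.091 ± 0.071 (limma adjusted p = 0.559), with a 95% interval of the difference from -16.0% to 5.0%.

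**Figure D3:**
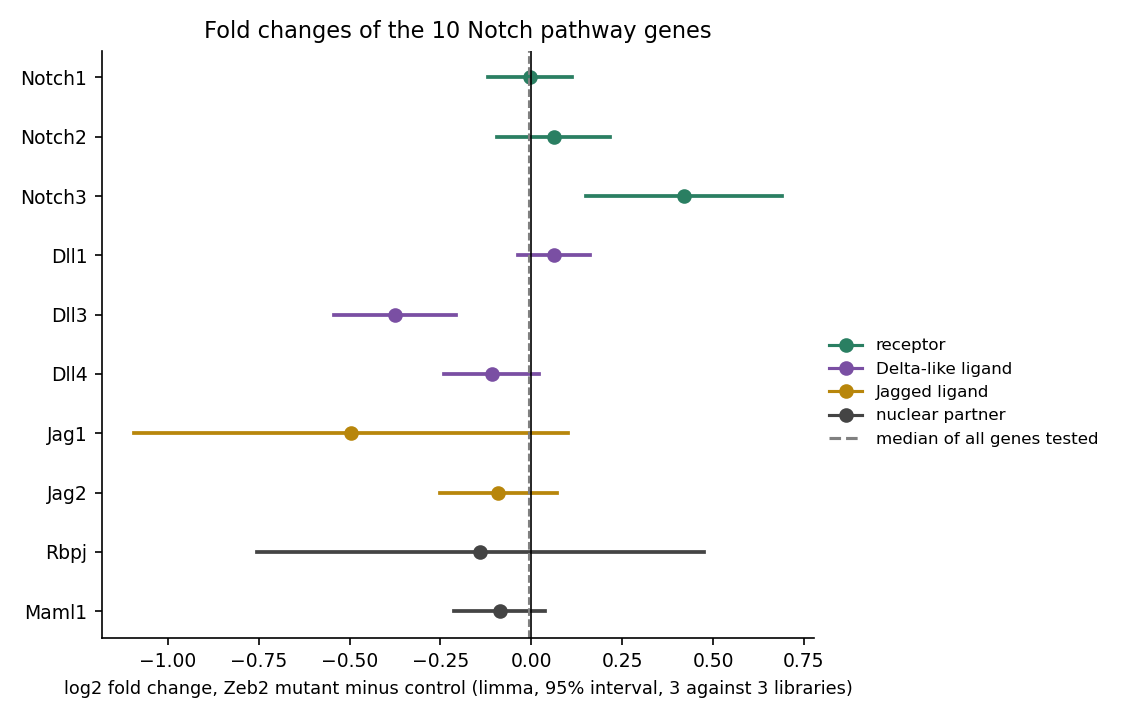
Log2 fold change of each gene, Zeb2 mutant minus control, with its 95% interval from limma (horizontal axis), coloured by role, beside the median of all genes tested (dashed). The intervals of Dll3 (-0.54 to -0.21) and Notch3 (0.15 to 0.69) lie to one side of 0 before adjustment for the number of genes, and those of Jag1 and Rbpj are the widest.

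Maml1, which encodes a coactivator that joins RBPJ and the Notch intracellular domain on DNA (ENSMUSG00000050567; chromosome 11, 50255634 to 50292311, minus strand), had 2515.2, 2486.3 and 2304.2 across controls, against 2363.8, 2171.1 and 2341 across mutants. The groups overlapped, and mutant library 2 was the lowest. Between the means, the log2 fold change was -0.087 ± 0.055 (limma adjusted p = 0.465), with a 95% interval of the difference from -13.8% to 2.7%.

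Rbpj, which encodes the DNA-binding protein through which canonical Notch signals act, varied more between libraries of the same group than between the groups. The gene (ENSMUSG00000039191; chromosome 5, 53466152 to 53657362, plus strand) had 1334.2, 2633.2 and 1288.8 across controls, against 1315.6, 1296.5 and 1982.5 across mutants. Control library 2 and mutant library 3 stood apart, while the other 4 libraries, from both groups, lay between 1288.8 and 1334.2. The log2 fold change was -0.14 ± 0.27 (SE; limma adjusted p = 0.837), turned to 0.19 without control library 2 (limma adjusted p = 0.660), and was -0.0058 without both libraries (limma adjusted p = 0.983), a setting chosen after seeing the data.

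A processed pseudogene of Rbpj ran the other way. Its row, named Rbpsuh-rs3 in the table and Rbpj-ps3 in GENCODE (ENSMUSG00000079575; chromosome 6, 46529354 to 46530794, minus strand), had 299.2, 25.2 and 312.3 across controls, against 319.1, 329 and 181.8 across mutants. It was lowest in control library 2 and next lowest in mutant library 3, the 2 libraries in which Rbpj was highest. Against the mean of the other 4 libraries, Rbpj was 2.01-fold and 1.51-fold as high in those 2, and the pseudogene 0.080-fold and 0.577-fold. Mutant library 3 lay close to the midpoint between control library 2 and the other 4, at 1982.5 against 1971 for Rbpj and 181.8 against 170 for the pseudogene. Summed, the 2 rows gave 1633.4, 2658.4, 1601.1, 1634.7, 1625.5 and 2164.3 in the same library order, so the difference between libraries remained in the sum, and the log2 fold change of the sum was -0.091 (limma adjusted p = 0.853).

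The 2 sequences are close to identical, so their reads cannot be assigned with certainty. All 1441 bases of the pseudogene aligned without a gap to the 5459-base Rbpj transcript, with 1437 identical (99.7%), and they cover 91.3% of its 1578 coding bases. Of all 50-base windows, 89.0% of those in the pseudogene occur unchanged in Rbpj and 22.9% of those in Rbpj occur unchanged in the pseudogene. The sources used here give neither the read length nor how reads that match both places were treated. Rbpj values are therefore uncertain, and the part of read assignment in the pattern was not tested. Exon 9 of the Rbpj transcript (chr5:53652607-53652762, plus strand) and the matching stretch of the pseudogene (chr6:46529771-46529926, minus strand), both from GENCODE M21 on GRCm38, are shown because they hold 2 of the 4 differing bases, which are in capitals.
Rbpj: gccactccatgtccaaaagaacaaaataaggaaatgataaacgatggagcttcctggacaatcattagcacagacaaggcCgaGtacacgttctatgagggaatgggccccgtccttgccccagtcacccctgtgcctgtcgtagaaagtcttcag
Rbpj-ps3: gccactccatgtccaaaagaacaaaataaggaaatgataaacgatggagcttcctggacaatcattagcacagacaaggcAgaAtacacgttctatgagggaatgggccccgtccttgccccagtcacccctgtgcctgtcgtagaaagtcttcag

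**Figure D4:**
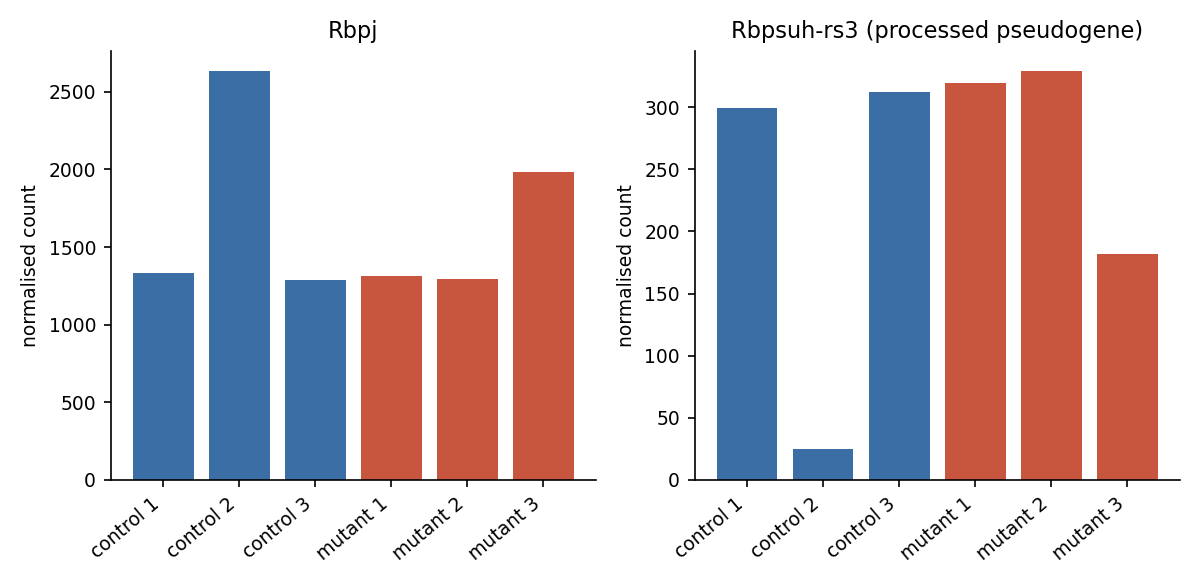
Normalised counts of Rbpj and of its processed pseudogene in each of the 6 libraries (bars from 0, 1 value each). Where Rbpj is high, in control library 2 and mutant library 3, the pseudogene is low, and the 4 other libraries sit between 1288.8 and 1334.2 and between 299.2 and 329.

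Per length of exon, 3 genes led the set. In controls, Notch1 stood at 1166 ± 57.2 normalised counts per kilobase, Dll3 at 1135 ± 68.5 and Dll1 at 1013 ± 28.7 (SD, n = 3 each). Notch1 and Dll3 overlapped in controls. Maml1 (440.5 ± 20.7) and Dll4 (439.6 ± 17.1) followed and did not differ beyond their spread. Rbpj (137 ± 59.9), Notch2 (125 ± 10.04), Jag2 (100.2 ± 6.85) and Notch3 (82.5 ± 7.61) formed a lower group, in which Rbpj overlapped Notch2 and Jag2, and Jag1 was last (37.2 ± 15.6). Lengths are merged exons of all annotated transcripts, which can be longer than the transcript that is present and so lower the value of any gene. For Rbpj they include retained introns, with 12750 bases against the 5459 of the transcript above. Notch1 had the longest, 14232 bases. The order of genes per kilobase therefore rests on these lengths.

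Per kilobase, the order of the leading ligands changed between the groups. In normalised counts not divided by length, Dll1 stood above Dll3 in every library. The change of order therefore rests on the exon lengths used, 2850 bases for Dll3 and 4219 for Dll1. In each control library Dll3 stood above Dll1 per kilobase, by 1129 against 1042, 1206 against 984 and 1069 against 1012. In each mutant library Dll1 stood above Dll3, by 1081 against 968, 1055 against 848 and 1037 against 813. Dll3 made up 41.6 ± 1.26% of the 5 ligands per kilobase in controls and 35.55 ± 1.4% in mutants, and Dll1 37.2 ± 1.84% and 43.0 ± 1.35% (SD, n = 3 each). Among the 3 receptors, Notch1 made up 84.9 ± 0.562% and 82.8 ± 1.203%, Notch2 9.12 ± 0.77% and 9.29 ± 0.396%, and Notch3 6.0 ± 0.289% and 7.9 ± 1.21%. In mutants Notch3 (111 ± 18.4 per kilobase) stood above Jag2 (94.0 ± 2.06) in all 3 libraries, while in controls it stood below Jag2 in all 3.

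**Figure D5:**
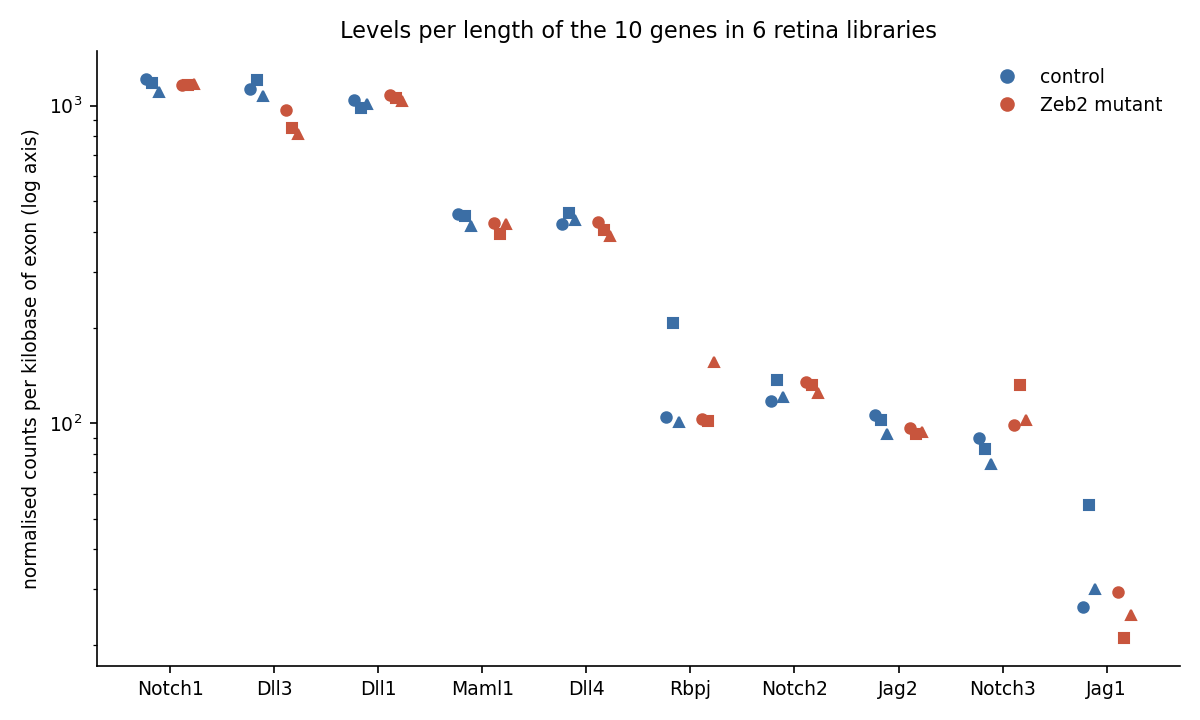
Normalised counts per kilobase of merged exon (vertical log axis) of the 10 genes in each library, ordered by the control mean. Dll3 lies above Dll1 in the 3 controls and below it in the 3 mutants, and Jag1 is the lowest gene in every library.

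Beyond the 10 genes, 63 other genes of the pathway were taken from 6 fixed lists, and all were tested. Of these 2 rose and 2 fell (limma adjusted p under 0.05), against 0.928% and 0.218% of all genes tested, and the median log2 fold change was -0.020. The proteases that release the receptor had 0 of 9 called (median 0.014), with Adam10, the protease that makes the first cut on ligand binding, at -0.088 and Ncstn, a γ-secretase subunit gene, at -0.10. The enzymes that add sugars to the receptor had 0 of 5 called (median -0.0019), with the fringe genes Lfng at 0.13 and Mfng at -0.0019. Other nuclear coactivators and corepressors had 0 of 16 called (median -0.040), with Ncor1 and Ctbp1 at -0.018 and -0.099. Of the 16, 14 were negative, against 52.0% of all genes tested. Tle1, a corepressor gene picked after its values were seen, had -0.25 (limma adjusted p = 0.0893), with all mutants below all controls. It was called by DESeq2, and by limma without mutant library 1. Without mutant libraries 1 and 2, Lfng was at -0.049. At an unadjusted p under 0.05 there were 15 of the 63, against 17.3% of all genes.

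Among 8 other receptors and ligands, Dlk1, a non-canonical ligand, rose 6.74-fold, and Cntn1, a cell adhesion gene and the most abundant, had 0.16 (median of the list 0.072). Among 15 genes of endocytosis and ubiquitin transfer, Neurl1a, which encodes a ubiquitin ligase that acts on Notch ligands, rose. It had 1062.7, 1093.1 and 1187.2 across controls, against 1334.6, 1461 and 1407.7 across mutants, a log2 fold change of 0.33 ± 0.062 that passed narrowly (limma adjusted p = 0.0498). The call was lost in 11 of 20 alternatives, the replicate block among them (limma adjusted p = 0.0529). Leaving out control library 1, 2 or 3 gave limma adjusted p = 0.199, 0.133 or 0.0580, and mutant library 2 or 3 0.161 or 0.114. Dtx4, another ubiquitin ligase gene, had 0.19, and the list's median was -0.017.

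The effectors of Notch split by gene. Of 10, Heyl and Sox9 fell and 0 rose (limma), against 0.218% lower and 0.928% higher of all genes tested. Log2 fold changes were positive for 5 and negative for 5, and the median was -0.044. Heyl, a bHLH repressor gene of the Hey family, had 4229.6, 4273.9 and 3949.3 across controls, against 3405.7, 3157 and 3304.9 across mutants, all below the controls (log2 fold change -0.34 ± 0.051, limma adjusted p = 0.0240). In 7 of the 10 the groups did not overlap, against 23.2% of all genes. Besides Heyl and Sox9 these were Hes1, Hey1 and Hey2, higher in mutants with 0.36, 0.28 and 0.092, and Nrarp and Ccnd1, lower with -0.24 and -0.34 (limma adjusted p = 0.112, 0.117, 0.430, 0.198 and 0.212). Hes1, a bHLH repressor gene and direct target, stood at 2651.5 to 2879.7 in controls and 3082.4 to 4196.2 in mutants. Hes5, the other target named above, overlapped between the groups, at 5343.4 to 5625.6 in controls and 5073.1 to 7129.7 in mutants. Its log2 fold change was 0.10 (limma adjusted p = 0.673). DESeq2 also called Hes1 and Hey1. Sox9, also a gene of Müller glia, fell by 0.28 ± 0.050 on the log2 scale (limma adjusted p = 0.0379). The Heyl call was lost when control 1 (limma adjusted p = 0.124), control 2 (0.0722), mutant 2 (0.0811) or mutant 3 (0.0583) was left out. The Sox9 call was lost when control 1 (limma adjusted p = 0.140), control 2 (0.113), control 3 (0.106), mutant 2 (0.1303) or mutant 3 (0.0857) was left out, with the replicate block (0.0625) and after quantile normalisation (0.0614). Without mutant libraries 1 and 2, the adjusted p was 0.0850 for Heyl and 0.0496 for Sox9 (limma).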

How the data were processed

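RNA of 6 retina samples was compared, grouped by the sample titles. Per the submitters' processing notes, the tools were STAR 2.4.2a, cutadapt, HTSeq and DESeq2, with the build GRCm38 and no roles stated. Each gene has a signal value that the authors deposited, a normalised count rounded to 1 decimal, and 0 other columns of values were present. All values lay within 0.06 of whole multiples of 1 step per library (100%), which gave back whole reads.

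Genes with a mean of at least 10 were tested by limma-trend (limma 3.58.1 in R 4.3.3) after taking log2(normalised count + 1), 2-sided, with Benjamini-Hochberg adjustment over all genes tested. On that scale the fold changes of low genes come out too small. edgeR 4.0.16 (quasi-likelihood) and DESeq2 1.42.0 were run on the recovered reads; DESeq2 left some genes without an adjusted p. Other alternatives were pseudocounts, filters, scalings, array weights, a replicate block and leaving out libraries. Levels were divided by merged exon length from GENCODE M21, and no set test was made. The steps were tested on simulated data.

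The members, lists and rules were chosen with earlier results of these data known. The text names all 10 members, Zeb2, up to 4 called genes of each pathway list filled to 2 with the most abundant, and the called or else the most abundant gene of each cell type list. Libraries of a group differed by more than sampling noise (chi-square per degree of freedom 7.47 to 13.8). The series text can be read as 1 mouse per library; if libraries share animals, the spread behind the p-values is partly technical.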

Additional observations from a re-analysis of the deposited data

How the results depend on the processing

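Direction and side of the threshold held in all 20 alternatives for Dll1, Dll4, Jag1, Jag2, Maml1, Dlk1, Adam10, Ncstn, Cntn1, Ctbp1 and Dtx4. The number of the 10 Notch genes called was 0 with limma, 2 with DESeq2, 1 with the replicate block, and 0 to 1 when leaving out 1 library. The count of all genes called was 184, with 874 under DESeq2 and 27 to 600 when leaving out 1 library. Of the 63 other pathway genes 4 were called, with 7 under DESeq2, which called 5.66% of the genes it gave an adjusted p. The count was 2 after quantile normalisation and 2 with the replicate block. It was 1 without control library 2 and mutant library 3 together, and 1 to 5 when leaving out 1 library.

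Values near 0 turned sign. Notch1 was at 0.029 after quantile normalisation, 0.011 on library totals, 0.0016 with array weights, 0.0042 without mutant libraries 1 and 2, 0.0004 without control library 2 and mutant library 3, and -0.043 to 0.027 when leaving out 1 library. Notch2 was at -0.0058 and Rbpj at 0.26 without mutant libraries 1 and 2, where Lfng and Ncor1 were at -0.049 and 0.050. Rbpj ran from -0.34 to 0.19 when leaving out 1 library. Mfng was at 0.002, 0.013 and 0.013 with TMM, quantile and total scaling, 0.0002 with edgeR, 0.0035 with array weights, 0.0034 without control library 2 and mutant library 3, and -0.051 to 0.065 when leaving out 1 library. Ncor1 was at 0.014 after quantile normalisation and -0.052 to 0.0043 when leaving out 1 library. The cause was not tested. Without mutant libraries 1 and 2, the lone mutant library is assumed to vary like the controls, and the settings without control library 2 and mutant library 3 and with Rbpj and its pseudogene summed were chosen after seeing the data.

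No pairing by replicate number was seen. Same-numbered libraries had correlations of deviations of 0.016, 0.149 and -0.063, against -0.241 to 0.22 for the other pairs. With 3 libraries a group, this cannot exclude a pairing. The replicate block moved the count of all genes called from 184 to 248. At 3 libraries a group, the narrowest 95% interval among the 10 genes, that of Dll1, was 0.099 wide to each side on the log2 scale, so smaller differences were not resolved for any of the 10.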

Other observations

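Lists of other cells not described above had the following values, with limma over all genes tested, of which 1.15% were called. Müller glia genes had 1 of 12 called, Sox9, which fell, against 0.218% of all genes tested called lower. Of the 12, 8 had positive and 4 negative log2 fold changes, and the median was 0.058. Car2, picked after its values were seen, had 0.30 (limma adjusted p = 0.05045), with all mutants above all controls. Ciliary margin genes had 0 of 10 called and a median of -0.25, with Cdon, a coreceptor gene, at 0.17. Blood and microglia genes had 0 of 8 called and a median of 0.15, with Csf1r, a receptor gene of microglia, at 0.46 (adjusted p = 0.264). Notch4, the receptor of vessel endothelium, had 284.3, 316.8 and 245.4 in controls and 262.1, 291.2 and 286.4 in mutants. Rbpjl, an Rbpj paralog known from the pancreas, was below the filter on low values, with 0, 2.1 and 1.7 in controls and 9.5, 9.7 and 2 in mutants. Gm14207, which overlaps Dll4 on the other strand, averaged 134 and 127.6.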
